A study of Homo sapiens with 26 samples.

Results

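The genes described here encode proteins of the centrosome: the pericentriolar scaffold, the gamma-tubulin complex, augmin, the factors that build and limit centrioles, the proteins of the centriole linker and appendages, and the centriolar satellites. They were 45 genes taken by symbol from the 33562 rows of the deposited expression table. Of these, 44 carried the listed symbol and CEP128 was found under the older symbol C14orf145. All 45 passed the filter on low values and were tested among 12589 genes. They were grouped into 8 roles.

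RNA was sequenced from 26 libraries of 9 lines derived from MDA-MB-231Luc, a human triple-negative breast cancer line that carries luciferase. All 9 lines held a pLUTZ mRFP vector, in which a doxycycline-responsive promoter drives the insert, and all were kept in doxycycline at 0.1 to 1 mg/ml. The 3 control lines (Empty, NES-Empty and NLS-Empty) held the vector without Aurora A kinase (AURKA), with the guide sgCon, and were at passages 19 and 20. The 6 AURKA lines were at passages 32 to 35. They held AURKA cDNA labelled wild type (WT-AURKA c1 and c2), with a nuclear export signal (NES-AURKA c1 and c2) or with a nuclear localisation signal (NLS-AURKA c2 and c3), in a background targeted with a guide against AURKA. The WT and NES clones had the cDNA labelled MUT2 and the guide sgAURKA2, and the NLS clones had the cDNA labelled MUT1 and the guide sgAURKA1. Passage, guide and cDNA therefore cannot be told apart from AURKA status, and guide and cDNA label cannot be told apart from the nuclear localisation signal. Each line was represented by 3 libraries, except WT-AURKA c2 with 2. The design asked how AURKA in the cytoplasm, in the nucleus or in both compartments relates to metastatic behaviour.

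The centrosome is the main microtubule organising centre of animal cells. It consists of a pair of centrioles inside a protein matrix that recruits gamma-tubulin ring complexes, from which microtubules grow. Centrioles are copied once per cell cycle under the control of the kinase PLK4. Before mitosis the matrix expands, a step in which AURKA takes part, and augmin adds microtubule branches inside the spindle.

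Library letters fell into A to H and I to Z, and these sets differed across the whole table. The A to H set held 1 library of every line except WT-AURKA c2, so that an unadjusted mean of that line rests on I to Z libraries alone. Depth estimated from the value steps of low genes was 16700000 to 20300000 reads or fragments in A to H and 12200000 to 16700000 in I to Z. The summed level of nuclear long noncoding RNAs was 185.7 to 580.8 RPKM (reads per kilobase of transcript, scaled to the mapped reads of the library) in A to H and 6.44 to 34.4 in I to Z. Library W of NLS-AURKA c2 differed from its partner X by a median of 0.45 (absolute log2) over the 45 genes, against 0.07 to 0.20 between the I to Z libraries of the other 8 lines. Of 10 markers listed for MDA-MB-231, VIM (234.4 to 1059 RPKM), AXL (133.3 to 532.1 RPKM) and CD44 (32.3 to 69.4 RPKM) were high in every library. In contrast, SPARC did not exceed 1.55 RPKM and was at 0 in 2 libraries. FN1 ranged from 0.478 to 77.9 RPKM (median 3.23) and ZEB1 from 4.07 to 11.9. Of 10 luminal markers, ESR1 and PGR did not exceed 0.0221 RPKM, whereas KRT8 (28.1 to 104 RPKM), KRT18 (65.3 to 222 RPKM) and KRT19 (73.9 to 220.2 RPKM) were high, and CDH1 and EPCAM reached 15.5 and 15.3 RPKM. Leukocyte markers (7 genes) summed to 27.8 to 71.5 RPKM, almost all of it CD68, with PTPRC at most 0.128, and 8 fibroblast markers to at most 1.83. The sum of 8 endothelial markers moved with the groups, from 1.11 to 1.96 RPKM in controls, 6.76 to 7.38 in WT-AURKA, 5.08 to 10.9 in NES-AURKA and 14.2 to 21.5 in NLS-AURKA. Of these 8, ROBO4, KDR and TIE1 were tested, and PECAM1 reached 1.23 RPKM, CDH5 0.112, TEK 0.0636, VWF 0.0515 and ERG 0.0165, with ERG at 0 in 22 libraries. The AURKA row, which does not separate endogenous from cDNA transcripts, had line means of 49.9 to 61.6 RPKM in the controls, 37.0 and 13.5 in WT-AURKA c1 and c2, 31.9 and 24.6 in NES-AURKA c1 and c2, and 66.5 and 51.9 in NLS-AURKA c2 and c3. In WT-AURKA c1, library D stood at 84.1 RPKM and the I to Z mean at 13.5. In bulk RNA, fewer cells expressing a gene and less RNA per cell cannot be told apart.

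Promoters of the genes on which the comparisons turn are given as 150 bases upstream of the transcription start, from RefSeq (GRCh38.p14), read 5′ to 3′ along the gene's strand. Capitals mark matches, on either strand, to a cell cycle homology region (CHR, TTTGAA or TTCGAA), an E2F site (TTTGGCGC, TTTCCCGC, TTTGCCGC or TTTCGCGC) or a CCAAT box. HAUS8 (chr19:17075453-17075602 (minus strand)) and CEP170 (chr1:243255282-243255431 (minus strand)) were higher in NLS-AURKA clones, and HAUS7 (chrX:153495466-153495615 (minus strand)) and CEP41 (chr7:130441017-130441166 (minus strand)) were lower there. PLK4 (chr4:127880743-127880892 (plus strand)) and CEP72 (chr5:612190-612339 (plus strand)) passed between AURKA lines and controls. Of this pair, the libraries of PLK4 overlapped between the groups and those of CEP72 did not. TUBG1 (chr17:42609533-42609682 (plus strand)), the gene of gamma-tubulin itself, is shown for its E2F and CCAAT matches.
HAUS8: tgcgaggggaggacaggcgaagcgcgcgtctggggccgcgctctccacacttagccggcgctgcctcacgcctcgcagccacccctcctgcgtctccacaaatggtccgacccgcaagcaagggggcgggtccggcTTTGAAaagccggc
CEP170: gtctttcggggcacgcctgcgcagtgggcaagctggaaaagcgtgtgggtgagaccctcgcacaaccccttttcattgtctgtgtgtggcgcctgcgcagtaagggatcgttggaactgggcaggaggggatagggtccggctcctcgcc
HAUS7: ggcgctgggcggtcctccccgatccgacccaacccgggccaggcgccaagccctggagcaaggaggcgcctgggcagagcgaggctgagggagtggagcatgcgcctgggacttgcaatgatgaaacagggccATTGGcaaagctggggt
CEP41: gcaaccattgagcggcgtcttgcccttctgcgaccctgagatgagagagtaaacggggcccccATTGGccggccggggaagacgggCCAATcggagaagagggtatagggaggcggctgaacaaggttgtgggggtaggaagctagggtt
PLK4: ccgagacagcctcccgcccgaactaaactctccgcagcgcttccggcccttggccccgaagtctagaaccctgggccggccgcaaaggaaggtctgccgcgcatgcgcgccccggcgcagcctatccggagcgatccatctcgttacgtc
CEP72: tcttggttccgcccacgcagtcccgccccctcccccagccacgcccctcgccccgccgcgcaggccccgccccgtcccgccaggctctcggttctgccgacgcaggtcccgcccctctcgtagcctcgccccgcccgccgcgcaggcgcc
TUBG1: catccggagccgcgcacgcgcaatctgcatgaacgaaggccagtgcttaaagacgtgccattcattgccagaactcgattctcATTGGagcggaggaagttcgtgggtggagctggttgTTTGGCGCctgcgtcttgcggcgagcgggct

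Promoters were matched for 40 of the 45 genes, and motifs were counted over 250 upstream bases. A CHR match was present in 4 of the 40 (10.0%) against 14.587% of 27305 promoters in the table. An E2F match was present in 5 (12.5%) against 2.787%, and a CCAAT match in 14 (35.0%) against 33.038%. No CHR or E2F match overlapped a match of another motif. HAUS8 had its CHR match close to the start, and CEP41 had a pair of CCAAT matches on opposite strands. HAUS7 had 1 CCAAT match, while PLK4, CEP72 and CEP170 had no match to these letters in this window. These matches are descriptions of sequence and were not tested for function.

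RPKM divides by transcript length, but the letter sets still differed with length, so an order of genes holds only for the set it is read from. In A to H, for example, the mean of AKAP9 (6.45 RPKM) was above that of HAUS1 (5.64 RPKM), the reverse of the I to Z order given here. Among I to Z libraries, the median over the 9 line means was highest for TUBG1, gamma-tubulin, at 36.6 RPKM. CEP57, a centriole assembly factor, followed at 13.97 RPKM, the augmin subunit HAUS1 at 12.5, the gamma-tubulin adaptor NEDD1 at 11.3 and the augmin subunit HAUS4 at 11.1. The lowest were CENPJ, which sets centriole length, at 0.49 RPKM, the scaffold protein gene AKAP9 at 0.747, and CEP152, the recruiter of PLK4, at 0.768. TUBGCP6 stood at 0.794 and the linker gene CEP68 at 0.806. The ratio of the highest to the lowest of the 9 I to Z line means was 4.02 for CEP250, 3.18 for HAUS8 and 3.15 for CEP170. It was 1.17 for HAUS2, 1.27 for CCP110 and 1.29 for ODF2, which varied least. Without library W it was 2.27 for CEP250, 3.09 for HAUS8 and 2.76 for CEP170. NLS-AURKA c2 was the highest line for 15 of the 45 genes in I to Z libraries, but for 5 when library W was left out. NLS-AURKA c3 was then the highest for 14 (8 with W). The fewest reads estimated behind a value were 18 for CENPJ and 21 for HAUS7, so differences in these genes rest on little sampling. Low numbers also lay behind values of other genes that passed, with as few as 39 reads for CEP95, 41 for CEP72 and 45 for CEP76.

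**Figure D1:**
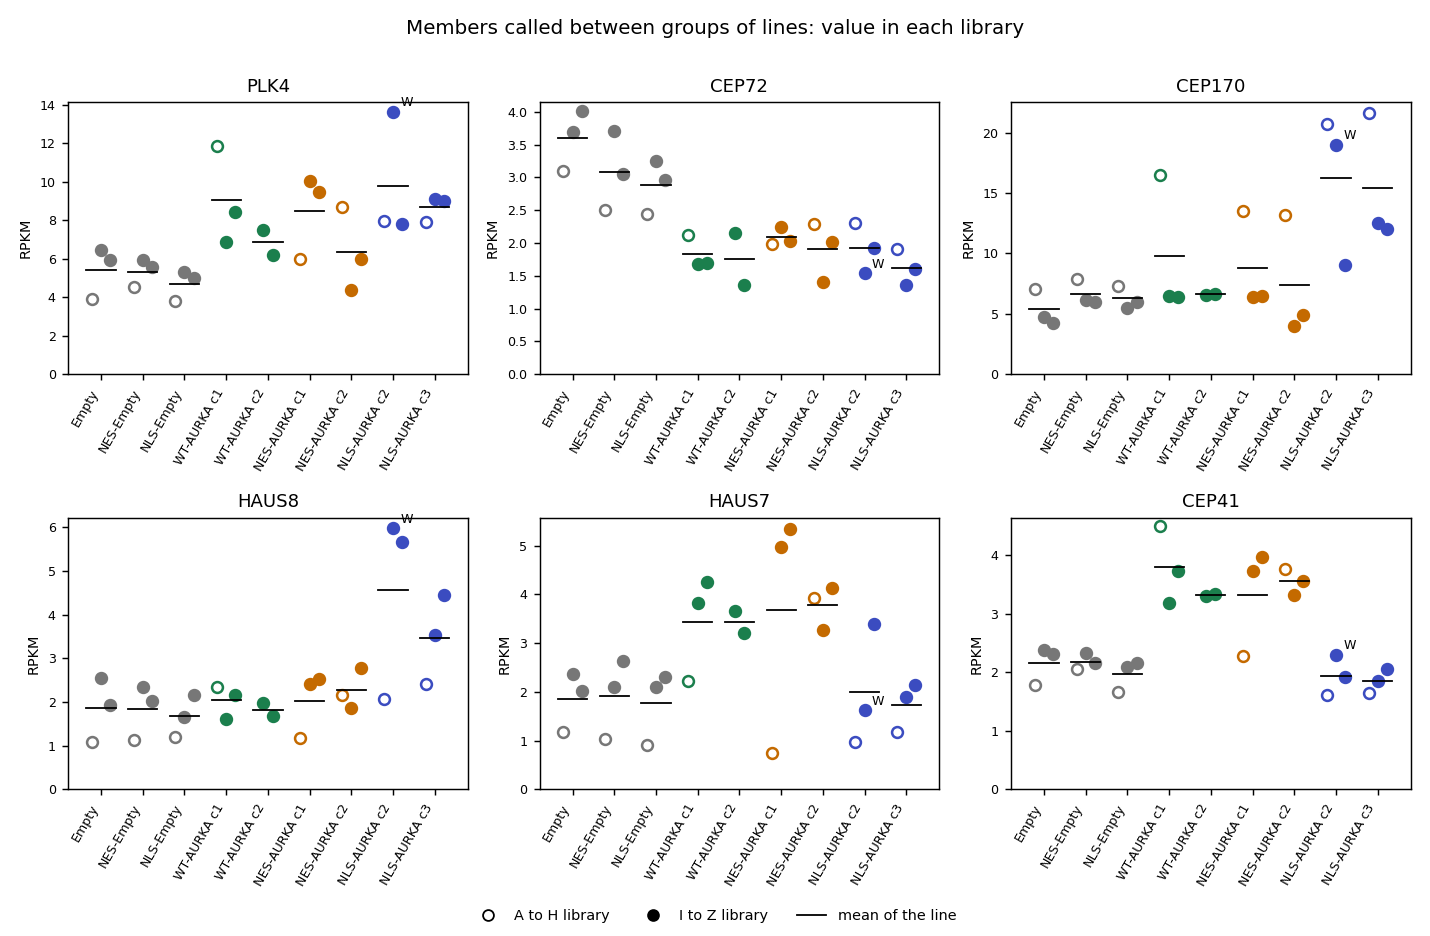
RPKM of 6 centrosome genes (vertical axis) in each library of the 9 lines (horizontal axis). Open circles are A to H libraries, filled circles I to Z libraries and bars the line means. CEP72 was lower in every AURKA library than in any control library, HAUS8 and CEP170 stood highest in NLS-AURKA lines, and HAUS7 and CEP41 stood higher in WT-AURKA and NES-AURKA lines than in controls or NLS-AURKA lines.

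AURKA lines (6) were first compared with control lines (3), using 1 mean per line. Of the 45 genes, 2 were higher (4.44%, against 8.85% of all genes tested) and 6 were lower (13.3%, against 10.4%), with limma on log2(RPKM + 1) and an adjusted p below 0.05. These shares were near those of all genes. Without Empty, NES-Empty or NLS-Empty the test called 2, 2 and 1 of the 45 genes, and without WT-AURKA c1 it called 5. The median log2 difference was -0.0071 over the 45 genes and -0.0174 over all genes. The genes that passed belonged to augmin, centriole assembly, the satellites and the other CEP proteins, and none belonged to the scaffold, the gamma-tubulin complex, centriole length and number control, or the linker and appendages.

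Among the satellites, the granules that carry proteins to the centrosome, 2 of 3 genes fell. CEP72, a PCM1-associated satellite protein, ranged from 2.45 to 4.01 RPKM in the 9 control libraries (median 3.10) and from 1.35 to 2.31 in the 17 AURKA libraries (median 1.92). The highest AURKA library lay below the lowest control library. The line means were 3.19 ± 0.369 RPKM in controls (SD, n = 3) and 1.85 ± 0.158 in AURKA lines (SD, n = 6), and the log2 difference was -0.55 (SE 0.09, limma adjusted p = 0.00275). In I to Z libraries it was -0.70 (limma adjusted p = 0.00184). CEP72 shares 404 exon bases with TPPP on the other strand, which had means of 0.35 RPKM in controls and 0.133 in AURKA lines. CEP131, a satellite protein needed for cilia, had control libraries from 1.69 to 4.02 RPKM (median 2.30) and AURKA libraries from 1.27 to 2.85 (median 1.87), which overlapped. Its log2 difference was -0.34 (SE 0.10, limma adjusted p = 0.0332), and -0.20 with adjusted p = 0.165 in I to Z libraries. In A to H, where the groups did not overlap, it was -0.53 (limma adjusted p = 0.0152). PCM1, the satellite scaffold, differed by -0.29 (limma adjusted p = 0.194).

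In centriole assembly, 1 of 10 genes rose and 2 fell. PLK4, the kinase that starts centriole duplication, ranged from 3.78 to 6.45 RPKM in control libraries (median 5.33) and from 4.38 to 13.6 in AURKA libraries (median 7.95). Library W was the highest, and the lowest AURKA libraries lay inside the control range. The means were 5.15 ± 0.396 RPKM (SD, n = 3) and 8.20 ± 1.33 (SD, n = 6), with a log2 difference of 0.56 (SE 0.13, limma adjusted p = 0.0156). The call was lost in I to Z libraries alone (0.42, limma adjusted p = 0.149). In A to H, which lacks WT-AURKA c2, the groups did not overlap and PLK4 differed by 0.88 (limma adjusted p = 0.0190). CEP120, which takes part in centriole elongation, had control libraries from 7.31 to 10.7 RPKM (median 9.59) and AURKA libraries from 3.27 to 9.21 (median 5.78). The groups overlapped through NES-AURKA and NLS-AURKA libraries, and the log2 difference was -0.52 (SE 0.12, limma adjusted p = 0.0156). In I to Z it was -0.46 (limma adjusted p = 0.133). In A to H, where the groups did not overlap, it was -0.65 (limma adjusted p = 0.0465). CEP135, a cartwheel protein of the centriole, had I to Z control libraries from 2.29 to 2.68 RPKM and I to Z AURKA libraries from 0.984 to 2.09. These did not overlap, and the log2 difference over all libraries was -0.39 (SE 0.09, limma adjusted p = 0.020). In A to H libraries the groups overlapped and the CEP135 difference was -0.15 (limma adjusted p = 0.483). SASS6, the cartwheel core, differed by -0.36 (limma adjusted p = 0.0801), and STIL, the PLK4 partner, by 0.18 (limma adjusted p = 0.358).

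In augmin, the 8-subunit complex that seeds branched spindle microtubules, HAUS6 rose and HAUS5 fell. HAUS6 ranged from 4.05 to 7.002 RPKM in control libraries (median 5.28) and from 5.57 to 12.6 in AURKA libraries (median 7.74), with overlap. Its log2 difference was 0.48 (SE 0.15, limma adjusted p = 0.0448), and the call was lost without library W (adjusted p = 0.0693). HAUS5 had I to Z control libraries from 3.70 to 4.24 RPKM and I to Z AURKA libraries from 2.21 to 3.38, which did not overlap. Its log2 difference over all libraries was -0.27 (SE 0.08, limma adjusted p = 0.0364). In A to H libraries the groups overlapped and the HAUS5 difference was -0.014 (limma adjusted p = 0.955). CEP95, listed among the other CEP proteins, had a control mean of 2.63 ± 0.164 RPKM (SD, n = 3) and an AURKA mean of 1.91 ± 0.162 (SD, n = 6). Its log2 difference was -0.32 (SE 0.08, limma adjusted p = 0.0243), and -0.31 with adjusted p = 0.0738 in I to Z libraries. CEP95 shares 506 exon bases with DDX5 on the other strand. With any 1 control line left out, the calls for PLK4 (limma adjusted p from 0.0556 to 0.0881), CEP131, CEP135, CEP95 and HAUS5 were each lost. That for CEP120 was lost without Empty or NLS-Empty, and that for HAUS6 without NES-Empty or NLS-Empty, while CEP72 passed with every line left out in turn.

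The core of the matrix did not pass this test over all libraries. PCNT, the scaffold that anchors gamma-tubulin complexes, differed by 0.26 (SE 0.20, limma adjusted p = 0.399). In A to H, which lacks WT-AURKA c2, PCNT ranged from 5.17 to 5.52 RPKM in controls and from 7.36 to 10.3 in AURKA lines, without overlap (0.58, limma adjusted p = 0.0239), and in I to Z it differed by 0.28 (adjusted p = 0.229). CDK5RAP2, which binds and activates those complexes, ranged from 2.66 to 3.21 RPKM in I to Z control libraries and from 3.38 to 5.04 in I to Z AURKA libraries. The I to Z groups did not overlap, and the log2 difference was 0.23 over all libraries (SE 0.10, limma adjusted p = 0.143) and 0.29 in I to Z (adjusted p = 0.0442). TUBG1 had means of 35.0 ± 1.36 RPKM in controls (SD, n = 3) and a log2 difference of -0.14 (SE 0.13, limma adjusted p = 0.504). NEDD1, which brings gamma-tubulin complexes to centrosome and spindle, differed by -0.06 (SE 0.16, limma adjusted p = 0.827). Of 30 proliferation genes, 3 rose and none fell in the same comparison, with a median of 0.079. The part of proliferation in these differences was not tested.

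**Figure D2:**
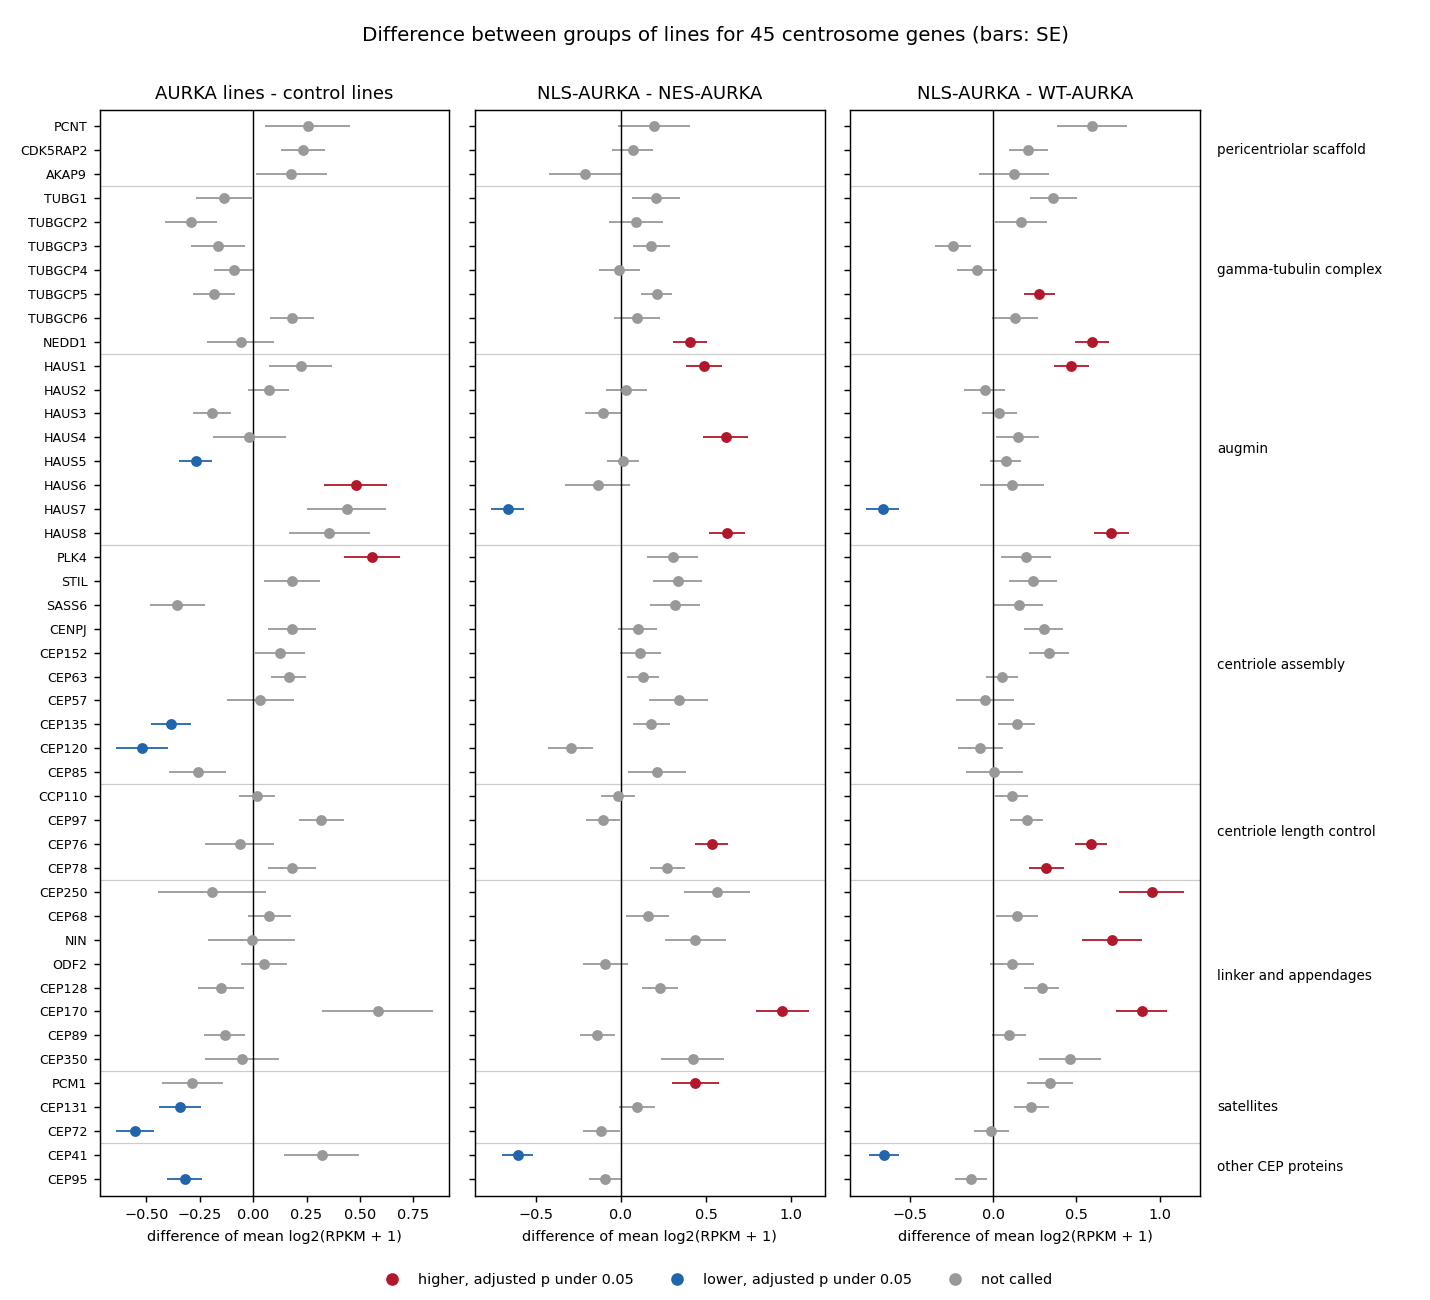
Log2 difference ± SE of the 45 genes, ordered by role (vertical axis), for AURKA against control lines, NLS-AURKA against NES-AURKA and NLS-AURKA against WT-AURKA (horizontal axes, log2(RPKM + 1) scale). Red points passed as higher, blue as lower and grey did not pass; 8, 9 and 11 genes passed, and CEP170 and HAUS8 lie to the right, HAUS7 and CEP41 to the left, in both construct comparisons.

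The second comparison set nuclear against cytoplasmic AURKA, the 2 NLS-AURKA against the 2 NES-AURKA clones. Of the 45 genes, 7 were higher in NLS-AURKA (15.6%, against 19.1% of all genes) and 2 were lower (4.44%, against 14.1%). The third comparison set NLS-AURKA against WT-AURKA, where 9 were higher (20%, against 18.7% of all genes) and 2 lower (4.44%, against 17.4%). The NLS-AURKA libraries are shared by both comparisons, so their values are given side by side. Median log2 differences were 0.16 over the 45 genes and 0.05 over all genes against NES-AURKA, and 0.16 and 0.01 against WT-AURKA. Since WT-AURKA c2 has no A to H library, I to Z values are given beside those against WT-AURKA, with the A to H value where it has the other sign. Leaving out WT-AURKA c1 leaves no A to H library of WT-AURKA, so letter set and construct cannot be told apart in that setting. Against WT-AURKA the test called 20 of the 45 genes without WT-AURKA c1, 17 without either NES-AURKA clone and 7 without NLS-AURKA c2.

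Augmin held 4 of the 9 genes that passed against NES-AURKA and 3 of the 11 against WT-AURKA, in both directions. HAUS8, the subunit that binds microtubules, was 2.06 RPKM in H, 5.97 in W and 5.65 in X of NLS-AURKA c2, and 2.41 in B, 3.52 in Y and 4.44 in Z of NLS-AURKA c3. NES-AURKA libraries were 1.18 in F and 2.17 in A, and 1.86 to 2.78 in I to Z. WT-AURKA libraries were 2.35 in D and 1.61 to 2.16 in I to Z. The 4 NLS-AURKA I to Z libraries were above all of those, while the A to H libraries overlapped. Means over lines were 1.79 ± 0.104 RPKM in controls (SD, n = 3), 1.93 ± 0.152 in WT-AURKA, 2.15 ± 0.168 in NES-AURKA and 4.01 ± 0.777 in NLS-AURKA (SD, n = 2). HAUS8 was higher in NLS-AURKA than in NES-AURKA by 0.62 (SE 0.11, limma adjusted p = 0.00247) and than in WT-AURKA by 0.71 (SE 0.11, adjusted p = 0.00114; I to Z 1.03, A to H -0.053).

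HAUS7, another augmin subunit, went the other way. It was 0.970 RPKM in H, 1.62 in W, 3.40 in X, 1.18 in B, 1.89 in Y and 2.14 in Z of the NLS-AURKA clones. NES-AURKA libraries were 0.743 in F and 3.92 in A, and 3.27 to 5.34 in I to Z. WT-AURKA libraries were 2.23 in D and 3.20 to 4.26 in I to Z. In I to Z, library X overlapped both constructs and the other 3 NLS-AURKA libraries were lower. In A to H, library F was below both NLS-AURKA libraries. Means were 1.85 ± 0.0744 RPKM in controls (SD, n = 3), 3.43 ± 0.00813 in WT-AURKA, 3.73 ± 0.0631 in NES-AURKA and 1.87 ± 0.183 in NLS-AURKA (SD, n = 2). The clones of a construct lay further apart in I to Z libraries alone. There the means were 2.25 ± 0.0993 RPKM in controls (SD, n = 3), 3.74 ± 0.437 in WT-AURKA, 4.43 ± 1.03 in NES-AURKA and 2.26 ± 0.349 in NLS-AURKA (SD, n = 2). The log2 difference was -0.66 against NES-AURKA (SE 0.10, limma adjusted p = 0.00121) and -0.66 against WT-AURKA (SE 0.10, adjusted p = 0.00104; I to Z -0.56). HAUS7 shares 1414 exon bases with TREX2 on the same strand, and TREX2 was listed at 0.0648 to 0.163 RPKM on average in the 3 constructs.

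The augmin genes HAUS1 and HAUS4 were higher in NLS-AURKA. HAUS1 had I to Z libraries from 14.9 to 21.6 RPKM in NLS-AURKA, from 9.17 to 12.9 in NES-AURKA and from 8.07 to 12.0 in WT-AURKA, without overlap. Its log2 difference was 0.49 against NES-AURKA (SE 0.10, limma adjusted p = 0.00688) and 0.47 against WT-AURKA (SE 0.10, adjusted p = 0.00754; I to Z 0.72). HAUS4 had I to Z libraries from 8.57 to 15.3 RPKM in NLS-AURKA and from 7.35 to 9.03 in NES-AURKA, which overlapped through library W. It was higher than in NES-AURKA by 0.61 (SE 0.13, limma adjusted p = 0.00684), but the difference from WT-AURKA was 0.15 (adjusted p = 0.401; I to Z 0.25). HAUS2, HAUS3, HAUS5 and HAUS6 did not pass in either comparison.

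Among linker and appendage genes, CEP170 passed against both constructs. Its protein sits on the subdistal appendages of the mother centriole, which anchor microtubules. NLS-AURKA libraries were 20.7 RPKM in H, 19.0 in W, 9.03 in X, 21.6 in B, 12.5 in Y and 12.0 in Z. NES-AURKA libraries were 13.5 in F and 13.2 in A, and 3.98 to 6.46 in I to Z, and WT-AURKA libraries were 16.5 in D and 6.35 to 6.66 in I to Z. Within each letter set the NLS-AURKA libraries were above the others. Means were 6.10 ± 0.667 RPKM in controls (SD, n = 3), 8.19 ± 2.23 in WT-AURKA, 8.08 ± 1.02 in NES-AURKA and 15.8 ± 0.600 in NLS-AURKA (SD, n = 2). The log2 difference was 0.95 against NES-AURKA (SE 0.15, limma adjusted p = 0.00193) and 0.89 against WT-AURKA (SE 0.15, adjusted p = 0.00228; I to Z 0.87). Reads may be split with the near-identical copy CEP170P1, whose mean was 0.811 RPKM in NLS-AURKA, 0.371 in NES-AURKA and 0.432 in WT-AURKA.

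CEP250, the linker protein that ties the centriole pair together, had I to Z libraries from 1.27 to 3.42 RPKM in NLS-AURKA and from 0.600 to 0.731 in WT-AURKA, without overlap. It was higher by 0.95 (SE 0.19, limma adjusted p = 0.00534; I to Z 0.72), and its difference from NES-AURKA was 0.56 (adjusted p = 0.0520). NIN, which anchors microtubule minus ends, had I to Z libraries from 3.09 to 8.60 RPKM in NLS-AURKA and from 2.45 to 2.71 in WT-AURKA. These did not overlap, and the log2 difference was 0.71 (SE 0.18, limma adjusted p = 0.0135; I to Z 0.67, A to H -0.18). The highest I to Z value of both genes was that of library W. All 8 linker and appendage genes had a positive difference from WT-AURKA, where 51.3% of all genes did, and 3 of them passed. In I to Z alone, where every line has libraries, all 8 differences were also positive. In A to H, where WT-AURKA is represented by library D alone, 5 of the 8 differences were negative. Of the 8 genes, 7 were higher in A to H, the set that WT-AURKA c2 lacks.

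Of the genes that control centriole length and number, CEP76, which restrains repeated centriole duplication, passed against both. NLS-AURKA libraries ranged from 1.68 to 2.99 RPKM (median 2.09), NES-AURKA libraries from 0.925 to 1.44 (median 1.17) and WT-AURKA libraries were 1.06 in D, 1.08 in O, 1.01 in P, 1.20 in Q and 1.15 in R. The lowest NLS-AURKA library was above every NES-AURKA and WT-AURKA library. The log2 difference was 0.53 against NES-AURKA (SE 0.10, limma adjusted p = 0.00314) and 0.59 against WT-AURKA (SE 0.10, adjusted p = 0.00164; I to Z 0.71). The control mean was 1.58 ± 0.202 RPKM (SD, n = 3), between the constructs. CEP76 shares 468 exon bases with PSMG2 on the other strand, which had means of 15.7 RPKM in NLS-AURKA, 12.4 in NES-AURKA and 11.9 in WT-AURKA. CEP78, a centriole wall protein, was higher than in WT-AURKA by 0.32 (SE 0.10, limma adjusted p = 0.0379; I to Z 0.36, A to H -0.037), a call lost without library W (adjusted p = 0.0551).

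In the gamma-tubulin complex, NEDD1 ranged from 9.38 to 18.4 RPKM in NLS-AURKA libraries (median 13.9), from 7.26 to 12.3 in NES-AURKA (median 10.5) and from 7.89 to 9.55 in WT-AURKA (median 8.72). Library W was the highest, and X, its partner, was the lowest of the NLS-AURKA libraries. The log2 difference was 0.59 against WT-AURKA (SE 0.10, limma adjusted p = 0.00222; I to Z 0.64). Against NES-AURKA it was 0.41 (SE 0.10, adjusted p = 0.0149), and without library W 0.28 (adjusted p = 0.142). TUBGCP5, a subunit of the ring complex, was higher than in WT-AURKA by 0.28 (SE 0.09, limma adjusted p = 0.0390; I to Z 0.31). TUBG1 had means of 27.6 ± 3.87 RPKM in WT-AURKA, 31.5 ± 4.38 in NES-AURKA and 36.6 ± 4.96 in NLS-AURKA (SD, n = 2). It did not pass against WT-AURKA over all libraries (0.36, limma adjusted p = 0.0741) but did in I to Z libraries (0.68, adjusted p = 0.00266), where 23.1 to 29.4 RPKM in WT-AURKA lay below 34.8 to 55.4 in NLS-AURKA. In A to H the order was the opposite, with 37.9 RPKM in D above 24.0 in H and 25.99 in B (-0.58, limma adjusted p = 0.462). TUBG1 has the near-identical paralog TUBG2, with means of 1.71 to 2.38 RPKM in the constructs.

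PCM1 was higher in NLS-AURKA than in NES-AURKA by 0.44 (SE 0.14, limma adjusted p = 0.0371), and the call was lost without library W (0.41, adjusted p = 0.0523). CEP41, which promotes tubulin glutamylation in cilia, was lower in NLS-AURKA. NLS-AURKA libraries ranged from 1.60 to 2.30 RPKM (median 1.89), NES-AURKA libraries from 2.27 to 3.97 (median 3.64) and WT-AURKA libraries from 3.18 to 4.49 (median 3.34). Only library F of NES-AURKA c1 fell in the NLS-AURKA range. The control libraries ranged from 1.66 to 2.38 RPKM (median 2.16), across nearly the same span as NLS-AURKA. The log2 difference was -0.61 against NES-AURKA (SE 0.09, limma adjusted p = 0.00132) and -0.65 against WT-AURKA (SE 0.09, adjusted p = 7.98e-04; I to Z -0.53).

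The scaffold genes did not pass between constructs over all libraries. PCNT differed by 0.60 between NLS-AURKA and WT-AURKA (SE 0.21, limma adjusted p = 0.0524) and by 0.19 between NLS-AURKA and NES-AURKA (SE 0.21, adjusted p = 0.516). In I to Z libraries PCNT passed as higher against WT-AURKA (0.44, limma adjusted p = 0.0384) and NES-AURKA (0.42, adjusted p = 0.0467). In A to H it was lower (-0.22 and -0.25) and did not pass. Library W stood at 3.64 RPKM of PCNT, whereas X, Y and Z were 1.23, 1.34 and 1.31, near the 1.32 of V in NES-AURKA c2. CDK5RAP2 differed by 0.21 against WT-AURKA (limma adjusted p = 0.192; I to Z 0.20, A to H -0.28) and by 0.07 against NES-AURKA (adjusted p = 0.695). No centriole assembly gene passed over all libraries. PLK4 differed by 0.30 against NES-AURKA (SE 0.15, limma adjusted p = 0.153) and by 0.20 against WT-AURKA (SE 0.15, adjusted p = 0.337; I to Z 0.38, A to H -0.53). In I to Z libraries STIL passed as higher against NES-AURKA (0.49, limma adjusted p = 0.0118) and WT-AURKA (0.46, adjusted p = 0.0156; A to H -0.39). There CEP152 also passed as higher against WT-AURKA (0.26, limma adjusted p = 0.0275, and -0.0099 in A to H). CEP120 passed there as lower against NES-AURKA (-0.64, limma adjusted p = 0.0226). STIL was 14.8 RPKM in W and 9.01 to 10.4 in X, Y and Z. CEP152 was 1.33 RPKM in W and 0.701 in X, below the 0.717 of P in WT-AURKA c1. The I to Z differences were not tested without library W. In I to Z libraries the summed level of 30 proliferation genes was 1254 to 1519 RPKM in NLS-AURKA, 993.5 to 1302 in NES-AURKA, 928.7 to 1116 in WT-AURKA and 1147 to 1330 in controls. Single proliferation genes passed in both directions, 2 higher and 3 lower against NES-AURKA and 2 higher and 5 lower against WT-AURKA. Of the 3 tested endothelial markers, 3 were higher in NLS-AURKA than in NES-AURKA and 3 than in WT-AURKA. The parts of proliferation and of the genes on the marker lists in the construct differences were not tested.

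None of the 45 genes passed between NES-AURKA and WT-AURKA with limma, where 4.87% of all genes did. Of the 45, 4 were below an unadjusted p of 0.05, and a fit with the line as a random block called 1. The test called 13 without library D. That setting leaves WT-AURKA with I to Z libraries alone while NES-AURKA keeps both sets, so letter set and construct cannot be told apart there. The smallest adjusted p was 0.0588, for TUBGCP3, a ring complex subunit (log2 difference -0.42). CEP41 and HAUS7 differed by -0.05 (SE 0.09, limma adjusted p = 0.795) and 0.0013 (SE 0.10, adjusted p = 0.996). With 2 clones a side, this does not show that the lines are alike.

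Each clone was also set against the control line with the matching vector (Empty, NES-Empty or NLS-Empty), over libraries and with the letter set as a term. A gene counted when both clones of a construct passed in the same direction. No label states that libraries of 1 line are separate cultures, and these p-values measure only the spread between libraries, which may be technical. In WT-AURKA, 1 gene was higher (2.22%, against 10.1% of all genes) and 3 lower (6.67%, against 11.5%). In NES-AURKA, 3 were higher (6.67%, against 7.02%) and 1 lower (2.22%, against 9.32%). In NLS-AURKA, 8 were higher (17.8%, against 15.9%) and 3 lower (6.67%, against 13.6%).

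CEP72 was lower in both clones of every construct: by limma, -0.70 and -0.75 in WT-AURKA, -0.40 and -0.49 in NES-AURKA, and -0.41 and -0.57 in NLS-AURKA. Among the genes called in both clones it had the largest mean fall in each construct. CEP41 was higher in WT-AURKA (0.60 and 0.41) and NES-AURKA (0.42 and 0.51) but did not pass in both NLS-AURKA clones. CEP76 fell in WT-AURKA (-0.44 and -0.44) and rose in NLS-AURKA (0.39 and 0.42). TUBGCP2, a core subunit of the small gamma-tubulin complex, fell in WT-AURKA (-0.35 and -0.42). Among such genes HAUS6 had the largest mean rise in NES-AURKA (0.44 and 1.00) and also rose in NLS-AURKA (0.55 and 0.70). CEP170 had the largest in NLS-AURKA, by 1.18 in c2 (SE 0.21, limma adjusted p = 2.30e-04) and 1.13 in c3 (SE 0.21, adjusted p = 3.66e-04). HAUS8 (0.98 and 0.73), PLK4 (0.89 and 0.77), HAUS1 (0.60 and 0.74), CEP78 (0.49 and 0.48) and CDK5RAP2 (0.29 and 0.29) also rose in both NLS-AURKA clones. CEP95 (-0.45 and -0.34) and TUBGCP3 (-0.35 and -0.37) fell there. CDK5RAP2 rose in both NES-AURKA clones as well (0.30 and 0.37).

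More of the centrosome genes passed between the letter sets than in any comparison above. Allowing for the line, 19 of the 45 genes were higher in A to H (42.2%, against 30.0% of all genes) and 11 lower (24.4%, against 43.2%). After each library was shifted to a common median the split was 22 higher and 8 lower. The median log2 difference was 0.09 over the 45 genes and -0.09 over all genes. All 3 scaffold genes and 7 of 8 linker and appendage genes were higher in A to H, and 4 of 8 augmin genes were lower.

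AKAP9, which anchors kinases and gamma-tubulin complexes at the centrosome and Golgi, ranged from 4.65 to 9.50 RPKM in A to H and from 0.332 to 1.38 in I to Z. The sets did not overlap, the ratio of means was 8.80 and the log2 difference 2.10 (SE 0.09, limma adjusted p = 9.33e-14). PCNT ranged from 5.17 to 10.3 RPKM in A to H and from 0.648 to 3.64 in I to Z, where the highest value without library W was 1.34. Its log2 difference was 1.94 (SE 0.11, limma adjusted p = 9.14e-12). CEP250 ranged from 5.43 to 8.001 RPKM and from 0.570 to 3.42, with a difference of 1.89 (SE 0.09, limma adjusted p = 4.67e-13). The lowest differences were those of HAUS1, at -1.12 (SE 0.10, limma adjusted p = 1.91e-09), HAUS4 at -0.80 and HAUS7 at -0.71. HAUS1 ranged from 3.74 to 7.51 RPKM in A to H and from 8.07 to 21.6 in I to Z, again without overlap. A level of PCNT or AKAP9 therefore depends on which set it is read from, with means of 7.28 and 6.45 RPKM in A to H and 1.17 and 0.733 in I to Z.

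**Figure D3:**
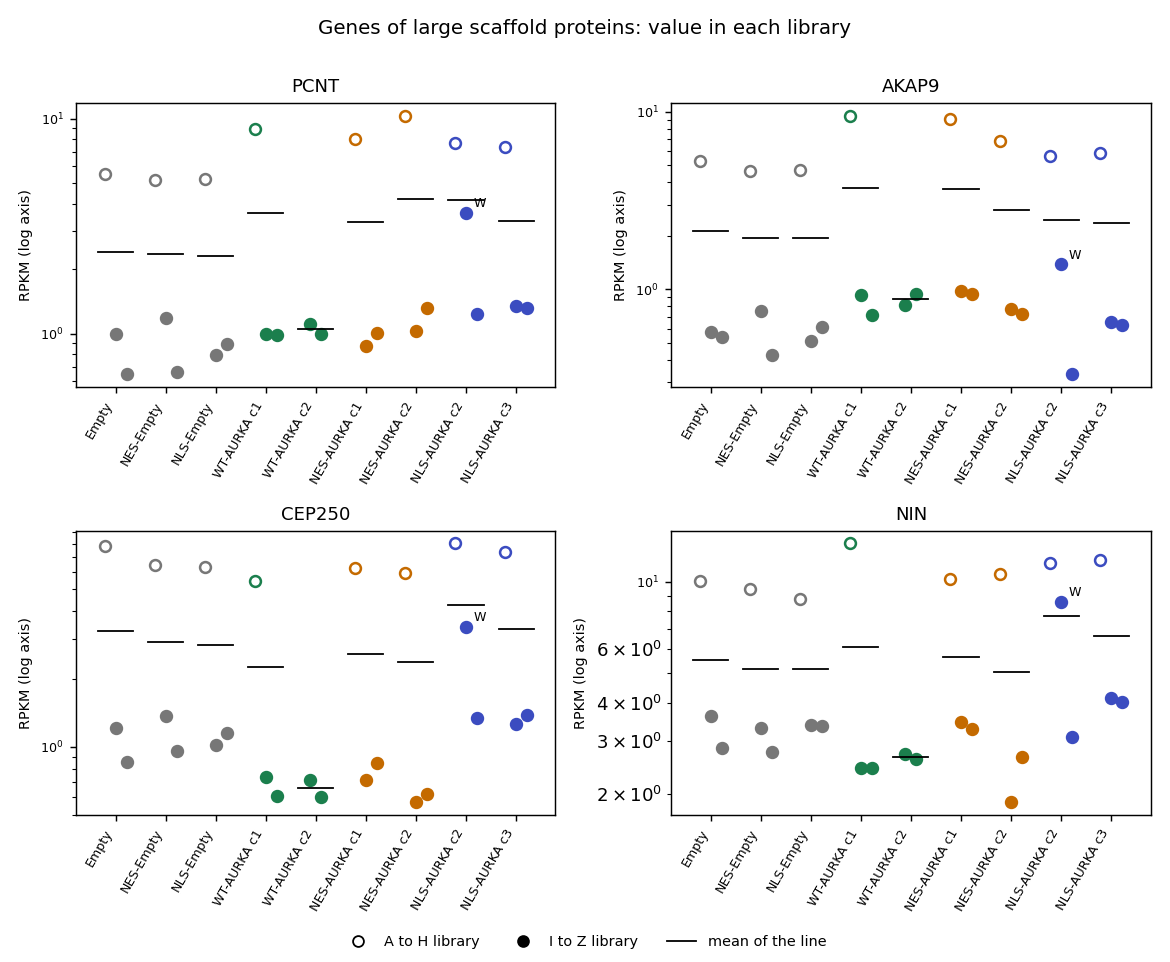
RPKM (vertical log axis) of PCNT, AKAP9, CEP250 and NIN in each library of the 9 lines (horizontal axis), with open circles for A to H and filled circles for I to Z. The A to H libraries lie above the I to Z libraries for all 4 genes, and library W lies above the other I to Z libraries.

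The difference between sets went with transcript length. Across the 45 genes, Pearson's r between the A to H minus I to Z difference and log length was 0.79 and Spearman's rho 0.68. Across 11217 tested genes with a length these were 0.49 and 0.52. These are correlations across genes, which share the same libraries and are not independent replicates. The 8 centrosome genes of 8000 bases or more had a median difference of 1.51, against 0.43 over 919 tested genes of that length. The 4 genes from 1500 to under 2500 bases had a median of -0.62, against -0.35 over all genes in that range. The longest transcript was 12471 bases for AKAP9, 10560 for PCNT and 15703 for CEP250, and 1125 bases for HAUS1, 1642 for HAUS4 and 1593 for HAUS7.

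**Figure D4:**
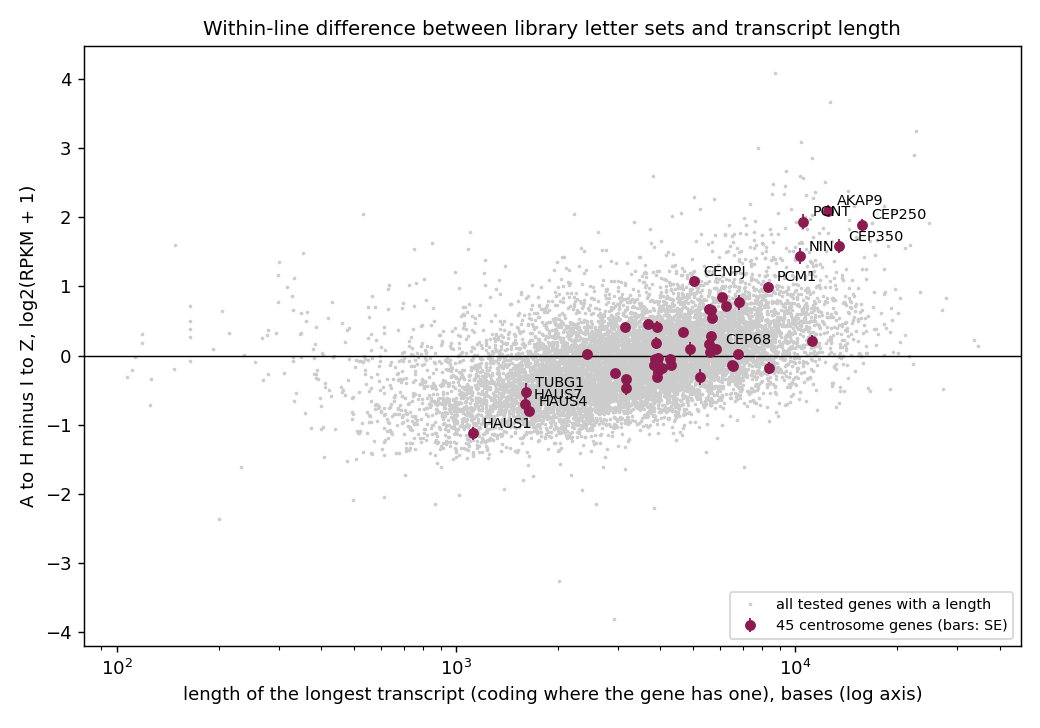
A to H minus I to Z difference (log2, vertical axis) against the length of the longest transcript in bases (horizontal log axis) for the 45 centrosome genes and, behind them, the other tested genes. AKAP9, PCNT and CEP250 lie at the upper right and HAUS1 at the lower left.

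Summed proliferation genes ranged from 553.2 to 1261 RPKM in A to H and from 928.7 to 1519 in I to Z. Libraries A (1239) and D (1261) lay inside the I to Z range, and the other A to H libraries did not exceed 795.4. Of the 30 genes, 26 passed as lower in A to H, where 43.2% of all genes did. S-phase genes summed to 293.5 to 528.8 RPKM in A to H and 492.6 to 798.4 in I to Z. Set, depth, nuclear noncoding RNA and these levels cannot be told apart.

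Of 64 further centrosome genes, 63 were in the table and 59 were tested. Between AURKA and control lines 2 rose and 5 fell, where 8.85% of all genes rose and 10.4% fell. SCLT1, a distal appendage protein, rose by 0.46 (limma adjusted p = 0.00645) and ASPM, a spindle pole protein, by 0.65 (adjusted p = 0.00967). OFD1, a distal centriole and satellite protein, had means of 3.20 ± 0.0948 RPKM in controls (SD, n = 3) and 0.986 ± 0.281 in AURKA lines (SD, n = 6), a log2 difference of -1.06 (limma adjusted p = 6.17e-04). CEP126 fell by 0.46 (limma adjusted p = 0.00881) and NINL by 0.38 (adjusted p = 0.0237).

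CETN2, encoding centrin, a calcium-binding protein of the centriole lumen, was the further centrosome gene with the smallest adjusted p between constructs. Its means were 10.1 ± 0.639 RPKM in controls (SD, n = 3), 24.8 ± 0.279 in WT-AURKA, 21.9 ± 3.90 in NES-AURKA and 8.16 ± 0.292 in NLS-AURKA (SD, n = 2). The log2 difference of NLS-AURKA was -1.24 against NES-AURKA (limma adjusted p = 9.20e-05) and -1.50 against WT-AURKA (adjusted p = 3.81e-05). As for CEP41 and HAUS7, the CETN2 means of controls and NLS-AURKA were both below those of WT-AURKA and NES-AURKA, a resemblance seen in the values and not tested. Against NES-AURKA 3 further genes were higher: CEP192, the PLK4 recruiter and AURKA-binding scaffold (0.65, limma adjusted p = 0.00506), ALMS1, a protein at the centriole base (0.58, adjusted p = 0.00513), and POC1B (0.44, adjusted p = 0.0267). Over all genes, 19.1% were higher and 14.1% lower against NES-AURKA, and 18.7% and 17.4% against WT-AURKA. Of the 59 further genes, 8 were higher and 10 lower against WT-AURKA. Among the higher were ALMS1 (0.76, limma adjusted p = 0.00114), CEP192 (0.75, adjusted p = 0.00226), CETN3 (0.42, adjusted p = 0.00528) and CEP83 (0.52, adjusted p = 0.00589). Among the lower were MZT1 and MZT2B, small subunits of the gamma-tubulin complex (-0.82, limma adjusted p = 0.00185, and -0.43, adjusted p = 0.00821), and BBS4 (-0.49, adjusted p = 0.00388). Between NES-AURKA and WT-AURKA only MZT1 passed, at -0.63 (limma adjusted p = 0.0367).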

How the data were processed

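RNA-seq of 26 libraries was available as a single table of expression values per gene symbol. Per the submitters' processing notes, HISAT2, SAMtools, Partek and the hg19 build were used, with no versions. How reads were counted, with which strand setting and on which annotation, is not given in the sources used here. Values deposited by the authors are taken as RPKM, a unit the table's header does not name. It was read from the values, whose steps in low genes scale with transcript length. These steps also gave the depth estimates, and an estimated read number carries counting error only.

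Genes with at least 1 RPKM in at least 2 libraries (12589) were analysed as log2(RPKM + 1), so a fold of a low gene is understated. Libraries were averaged per line, and lines were compared with limma 3.58.1 in R 4.3.3 (trended variance, moderated test, Benjamini-Hochberg adjustment over all 12589 genes, threshold 0.05), in a fit of AURKA against control lines and a fit of 4 groups (control, WT, NES, NLS). Clones against the matched control line, and the letter sets, were tested over libraries with line and letter set as terms. The scripts were tested on simulated data. No per-sample column was left unused and no library pair held identical values. Replicate names are the library letters of the labels, which do not pair samples between lines.

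The members and all gene lists were chosen with earlier results of these data known. All 45 members were accounted for by role. Described in full were members that passed in AURKA against control or between constructs (at most 4 per role, by adjusted p), PLK4, PCNT, CDK5RAP2, TUBG1, NEDD1 and AURKA. For the letter sets these were the 3 highest and the 3 lowest, for clones the largest mean change in each direction, and for other centrosome genes up to 4 per direction. One gene that this rule selects is not reported here. Other members were named to complete a role. Alternatives were a pseudocount of 0.1, no filter, a common median, I to Z or A to H libraries alone, single libraries or lines left out, a random line block, and no letter-set term. Promoter sequences were taken from RefSeq (GRCh38.p14) and transcript lengths from the reference annotation, not from hg19.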

Additional observations from a re-analysis of the deposited data

Results flagged for a closer look

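Of the 6 AURKA lines, 1 line stood far from the others for 4 genes, by Dixon's criterion on mean log2 values, which are given here back-transformed. WT-AURKA c2 was the lowest for CDK5RAP2 (3.49 RPKM), CEP152 (0.616 RPKM) and CEP131 (1.37 RPKM), and NES-AURKA c1 was the lowest for CEP85 (3.75 RPKM). WT-AURKA c2 has no A to H library, and CDK5RAP2, CEP152 and CEP131 were all higher in A to H. Chance alone marks about 1 in 20 groups in this way. For 2 genes the A to H minus I to Z difference was not the same in AURKA and control lines, by an interaction term chosen after seeing the data (limma, adjusted p below 0.05, passed by 4.65% of all genes). The difference in AURKA lines minus that in controls was -0.365 (log2) for CEP131 and 0.46 for CEP72. The fall of CEP72 in AURKA lines was accordingly larger in I to Z (-0.70) than in A to H (-0.24), and that of CEP131 larger in A to H (-0.53) than in I to Z (-0.20).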

How the results depend on the processing

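The counts of centrosome genes that passed moved with the letter sets and with single lines and libraries. The A to H only and without-library-W settings were chosen after seeing the data. Without D, without A and D, or without WT-AURKA c1, WT-AURKA held only I to Z libraries. The other constructs kept libraries of both sets. Letter set and construct therefore cannot be told apart when line means are compared with WT-AURKA there. For AURKA against control lines (8 genes), I to Z libraries alone gave 5, and leaving out 1 line at a time gave 1 to 11. For NLS-AURKA against NES-AURKA (9), I to Z gave 15, leaving out libraries A and D 17, a random line block with a letter-set term 14 and A to H alone 2. For NLS-AURKA against WT-AURKA (11), I to Z gave 18, leaving out D 25, leaving out A and D 21, A to H alone 0, and leaving out 1 line at a time 7 to 20. For NES-AURKA against WT-AURKA (0), I to Z gave 1, leaving out D 13, leaving out A and D 2, the random block 1, and single lines left out 0 to 5 (5 without NES-AURKA c1, 2 without WT-AURKA c1, 1 without NES-AURKA c2). For both clones against the matched control, WT-AURKA (4) gave 10 in I to Z, 1 without the letter-set term and 0 to 9 with single libraries left out (9 without D, 2 without E, 1 without I or Q and 0 without R). NES-AURKA (4) gave 2 without the filter, 0 without the letter-set term and 0 to 4 (2 without C or K, 1 without L, 0 without S or T), and NLS-AURKA (11) gave 2 without the letter-set term and 7 (without G) to 12. In A to H alone, which leaves a single WT-AURKA library, NLS-AURKA against WT-AURKA turned to -0.053 for HAUS8, -0.037 for CEP78 and -0.18 for NIN; the cause was not tested. A pseudocount of 0.1 and a common median kept every count between lines within 1.5 times. Leaving out library W gave 7, 7 and 10 genes in the first 3 comparisons and 8 in the NLS-AURKA clones. No paired analysis was possible because the labels give each library its own letter and share no replicate numbers between lines. Values of CENPJ and HAUS7 rest on as few as 18 and 21 estimated reads, and those of CEP95, CEP72 and CEP76 on as few as 39, 41 and 45.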
